A study of Mus musculus with 10 samples.

Results

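The A-kinase anchoring proteins are a family of scaffolds, and 10 of their genes, Akap1, Akap2, Akap6, Akap7, Akap8, Akap9, Akap10, Akap11, Akap12 and Akap13, were taken by symbol from a deposited table of 23337 genes. All 10 were found in the table, and all 10 passed the filter on low counts that 13191 genes passed. Its read counts come from left atria of 10 adult mice, of which 6 carry the label Tbx5 Null (Tbx5-/-) and 4 the label Wildtype (Tbx5 +/+). In the knockouts a Cre recombinase, active after tamoxifen and driven from the ubiquitous R26 promoter, removed exon 3 of Tbx5 in any cell type that expresses it, so the deletion is not limited to cardiomyocytes. The protocol gives 0.167 mg tamoxifen per day for 3 days, with tissue taken 1 week later. Both groups were of a mixed C57B6 and 129 background. Their age is 8 to 10 weeks in the sample labels and 6 to 8 weeks in the extraction protocol. The same protocol text is attached to all 10 samples, and no label says whether control mice carried the Cre allele or were themselves given tamoxifen. By label, 3 of the 6 knockouts and 2 of the 4 controls were female, and each library is named as its own animal.

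Each anchoring protein carries an amphipathic helix that holds a regulatory subunit of protein kinase A (PKA), and a targeting region that places the kinase at a given site in the cell. PKA itself is a holoenzyme of regulatory and catalytic subunits that separates when cyclic AMP binds. In heart muscle this placement is known for bringing the kinase, phosphodiesterases and phosphatases close to calcium channels, the ryanodine receptor, phospholamban and potassium channels during beta-adrenergic signalling. The family shares the binding of PKA rather than a common fold, and most members also bind other enzymes.

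Libraries held 5789632 to 7355782 assigned reads in knockouts and 5701670 to 7697556 in controls. Reads of the 10 anchoring genes made up 0.126% to 0.163% of all counts in knockouts and 0.183% to 0.218% in controls, without overlap. The targeted gene was higher in the libraries labelled knockout. A count over the whole gene does not measure the loss of 1 exon, and counts per exon were not analysed here. Tbx5 had 1497 normalized counts at lowest, 1991 at the median and 2460 at highest in the libraries labelled knockout, against 1077, 992, 785 and 901 in controls. Groups are therefore named by their labels. Cardiomyocyte markers were abundant in both groups and moved in both directions. Actc1, the cardiac alpha-actin gene, had 61502 ± 8106 normalized counts in knockouts (SD, n = 6) and 40940 ± 1418 in controls (SD, n = 4), while Myh6, the alpha-myosin heavy chain gene, had 138013 ± 19791 in knockouts and 175000 ± 8133 in controls. In tissue, fewer cells of a type and less RNA per cell cannot be told apart.

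By its design the comparison addresses left atrial expression after deletion of Tbx5 in the adult, a deletion that these counts do not measure. Of the 10 anchoring genes, 8 fell in knockouts, Akap2 rose, and Akap10 did not pass the test (edgeR quasi-likelihood test, adjusted p under 0.05 over 13191 genes). Of all tested genes, 21.8% were called lower and 20.8% higher, 42.6% in all. The steepest falls were those of Akap9, Akap11 and Akap6, which encode a centrosomal and Golgi scaffold, a vesicle-associated scaffold and the muscle scaffold of the nuclear envelope. These 3 passed the test with a log2 fold change under -1, as did 5.36% of all tested genes. In 7 of the 10 genes every knockout library lay below every control library, and this held for 15.0% of tested genes. In 0 of the 10 did every knockout lie above every control, which held for 16.3% of tested genes (31.3% in either direction). The median log2 fold change was -0.60 over the 10 genes and 0.00 over all tested genes. Scaling to library size alone moved the median of all tested genes to 0.14 and their calls to 3942 higher and 2020 lower, against 2741 higher and 2881 lower. Under that scaling the 10 genes kept the sign of their fold changes, and Akap1 no longer passed.

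**Figure D1:**
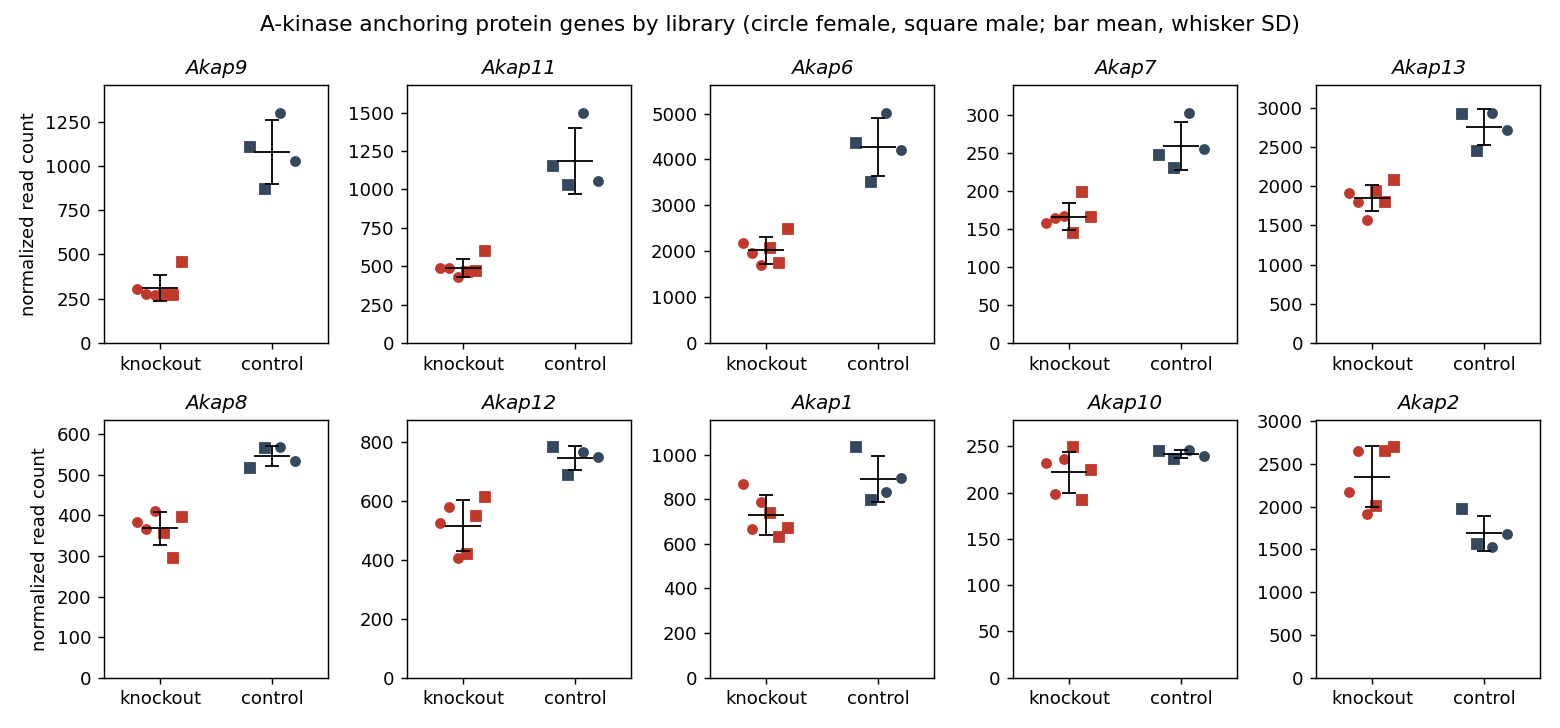
Normalized read counts of the 10 anchoring genes in each library (vertical axis from 0, one panel per gene, ordered from the steepest fall to the rise), with knockout libraries in red to the left of control libraries in dark blue. Circles are female and squares male animals, the horizontal bar is the mean and the whisker the SD (n = 6 knockout, n = 4 control). Akap9, Akap11, Akap6, Akap7, Akap13, Akap8 and Akap12 show no overlap between the groups.

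Akap9 encodes a large coiled-coil protein of the centrosome and Golgi, whose short splice form Yotiao tethers PKA to the KCNQ1 potassium channel. Its gene lies on chromosome 5 (3928054 to 4081310, plus strand, GRCm38). Knockout libraries held 271 normalized counts at lowest, 273 at the median and 457 at highest, against 1109, 869, 1301 and 1029 in controls. The highest knockout value, that of M3, stood apart from the other 5, which lay between 271 and 304, and was still below every control. The log2 fold change was -1.83 ± 0.16 (SE, adjusted p = 1.90e-06), a level 3.55-fold lower. A count per gene does not separate Yotiao from the long forms.

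Akap11 encodes a scaffold also called AKAP220, which binds both classes of PKA regulatory subunit, protein phosphatase 1 and GSK3-beta. The gene is on chromosome 14 (78492246 to 78536808, minus strand). Its normalized counts were 428 at lowest, 478 at the median and 601 at highest in knockouts, against 1151, 1029, 1500 and 1056 in controls. Knockout M3 was again the highest of its group, and control F1 the highest of all. This was a log2 fold change of -1.30 ± 0.12 (adjusted p = 3.68e-06), or 2.46-fold lower.

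Akap6 encodes the muscle anchoring protein mAKAP, which sits at the nuclear envelope of cardiomyocytes and gathers PKA, phosphodiesterase 4D, calcineurin and the ryanodine receptor. It spans chromosome 12 (52699383 to 53155599, plus strand). Knockout libraries had 1703 normalized counts at lowest, 2013 at the median and 2494 at highest, against 4349, 3498, 5023 and 4214 in controls. Its lowest control, M2, was well above its highest knockout, M3. Its level was 2.15-fold lower, with a log2 fold change of -1.10 ± 0.13 (adjusted p = 1.78e-05).

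The 250 bases before the RefSeq start of these 3 genes on GRCm38.p6 are shown because these genes fell furthest. They are written 5′ to 3′ on the strand of the gene. The RefSeq start of Akap6 matches the GENCODE position given above. The Akap9 stretch runs past the GENCODE start into the gene, and the Akap11 stretch ends short of its GENCODE start. Capitals mark the core TGACG of the cyclic AMP response element (CGTCA when it lies on the other strand), bound by the CREB family of PKA targets. The T-box core AGGTGT had no match in these 3 stretches.
Akap6, chr12:52699133-52699382, plus strand: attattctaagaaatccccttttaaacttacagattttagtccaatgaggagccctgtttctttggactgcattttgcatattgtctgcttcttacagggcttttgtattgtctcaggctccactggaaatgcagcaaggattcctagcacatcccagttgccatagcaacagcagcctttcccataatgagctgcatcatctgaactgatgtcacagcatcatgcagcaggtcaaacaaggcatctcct
Akap9, chr5:3927936-3928185, plus strand: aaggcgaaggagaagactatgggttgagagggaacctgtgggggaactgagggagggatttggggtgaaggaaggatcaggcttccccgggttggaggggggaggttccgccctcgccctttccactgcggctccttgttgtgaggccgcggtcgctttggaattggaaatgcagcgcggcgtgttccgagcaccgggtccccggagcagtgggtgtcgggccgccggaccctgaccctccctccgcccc
Akap11, chr14:78536861-78537110, minus strand: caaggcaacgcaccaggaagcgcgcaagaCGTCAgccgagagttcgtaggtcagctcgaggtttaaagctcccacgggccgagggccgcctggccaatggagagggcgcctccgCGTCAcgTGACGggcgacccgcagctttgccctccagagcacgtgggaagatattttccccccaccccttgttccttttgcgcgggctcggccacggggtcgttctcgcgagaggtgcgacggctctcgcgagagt

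GC content was 43.6% in the Akap6 stretch and 65.6% in those of Akap9 and Akap11, beside a median of 52.4% over 32851 RefSeq promoters. Of the 10 genes 8 had a RefSeq promoter under their symbol, with 12 windows in all, each of 250 bases before and 50 after a start. Akap2 and Akap12 were not among them. Searched on both strands, AGGTGT occurred in 3 of the 12 windows and in 13.7% of all promoters. Those 3 were a pair of overlapping Akap1 windows that share 1 match and a second Akap11 start. The longer T-box site AGGTGTGA, which contains the core, occurred in 0 of 12 windows and 1.28% of all promoters. TGACG occurred in 1 of 12 windows, that of Akap11 above, and in 20.8% of all promoters, and the full element TGACGTCA, which contains it on both strands, in 0 of 12 and 1.79%. A match is only a run of letters, and its absence from so short a window says nothing about binding elsewhere.

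Akap7 and Akap13 had smaller falls. Akap7, also called AKAP15 or AKAP18, encodes short lipid-anchored forms at the L-type calcium channel and a longer form that holds PKA at phospholamban. On chromosome 10 (25169090 to 25307870, minus strand), it had 144 normalized counts at lowest, 165 at the median and 198 at highest in knockouts, against 247, 230, 303 and 255 in controls. All knockouts lay below all controls, and the log2 fold change was -0.66 ± 0.11 (adjusted p = 0.000292). Akap13 encodes AKAP-Lbc, a scaffold that is also a guanine nucleotide exchange factor. On chromosome 7 (75455534 to 75754609, plus strand), it had 1574 at lowest, 1854 at the median and 2075 at highest in knockouts, against 2921, 2453, 2938 and 2713 in controls. Its groups did not overlap either, with a log2 fold change of -0.60 ± 0.10 (adjusted p = 0.00022).

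Akap8 and Akap12 changed by similar amounts. Akap8 encodes AKAP95, a nuclear protein tied to chromatin condensation and RNA splicing. It lies on chromosome 17 (32303672 to 32321238, minus strand). Its counts were 296 at lowest, 375 at the median and 411 at highest in knockouts, against 518, 566, 568 and 533 in controls, with knockout M2 lowest and the controls close together. The log2 fold change was -0.59 ± 0.10 (adjusted p = 0.000296). Akap12 encodes gravin, a plasma membrane scaffold that binds the beta-2 adrenergic receptor and protein kinase C, and it is known from mesenchymal and endothelial cells as well as muscle. The gene is on chromosome 10 (4266380 to 4359470, plus strand). Knockout libraries had 407 at lowest, 539 at the median and 615 at highest, against 783, 688, 768 and 749 in controls. Its log2 fold change was -0.55 ± 0.12 (adjusted p = 0.00185), and knockout M3, the highest, lay below control M2, the lowest.

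Akap1 and Akap10, whose products D-AKAP1 and D-AKAP2 hold type I as well as type II PKA, had the smallest fold changes of the 10. Akap1 encodes the anchor of the outer mitochondrial membrane and lies on chromosome 11 (88830792 to 88864586, minus strand). It had 631 normalized counts at lowest, 704 at the median and 870 at highest in knockouts, against 1032, 798, 833 and 893 in controls, and the groups overlapped. The log2 fold change of -0.31 ± 0.11 passed with little margin (adjusted p = 0.0317). It no longer passed without control M1 (-0.21, adjusted p = 0.167), F1 (-0.32, adjusted p = 0.0554) or F2 (-0.29, adjusted p = 0.0871), or without knockout F2 (-0.28, adjusted p = 0.0682), M2 (-0.27, adjusted p = 0.0639) or M3 (-0.29, adjusted p = 0.0553). Akap10, whose product also carries RGS-type domains, lies on chromosome 11 (61871307 to 61930252, minus strand). Its counts were 192 at lowest, 228 at the median and 249 at highest in knockouts, against 245, 236, 246 and 240 in controls. Here the knockouts enclosed the controls, and the log2 fold change of -0.15 ± 0.10 did not pass (adjusted p = 0.248).

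Akap2 was the member that rose. It encodes AKAP-KL, an anchor associated with the actin cytoskeleton, on chromosome 4 (57717657 to 57896984, plus strand). Knockout libraries held 1917 normalized counts at lowest, 2407 at the median and 2692 at highest, against 1976, 1562, 1532 and 1678 in controls. Only knockout F3, the lowest of its group, lay below the highest control, M1. The log2 fold change was 0.45 ± 0.12 (adjusted p = 0.00877), a level 1.37-fold higher. In GENCODE M21, 84.4% of the exon bases of Akap2 are shared on the same strand with Pakap, a gene that joins Akap2 to the upstream Palm2. How the counting treated reads in shared exons is not given in the sources used here, so the level of Akap2 is uncertain. Palm2, named after its values were seen, had 72.1 ± 11.8 normalized counts in knockouts and 52.0 ± 6.06 in controls (log2 fold change 0.45 ± 0.16, adjusted p = 0.0309).

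Read counts grow with transcript length, so levels were compared between genes per kilobase of the longest annotated transcript. Akap2 stood at 325 ± 49.3 normalized counts per kb in knockouts (SD, n = 6) and 233 ± 28.0 in controls (SD, n = 4). Akap6 stood at 136 ± 19.9 in knockouts and 288 ± 42.1 in controls. In knockouts Akap2 was highest, with a range apart from that of the next gene, Akap1 at 190 ± 23.3. The lowest Akap1 library, at 164.9, lay barely above the highest of Akap13, at 164.7. Akap13 stood at 147 ± 13.4, and its range overlapped that of Akap6. In controls Akap6 was highest, but its range overlapped that of Akap2, whose range overlapped that of Akap1 at 232 ± 27.0, and this in turn that of Akap13 at 219 ± 18.0. Akap12, Akap8, Akap7, Akap10 and Akap11 formed an overlapping run at 52.3 to 83.4 per kb in knockouts, with Akap9 below them at 23.5 ± 5.63. The corresponding run in controls was Akap11, Akap12, Akap8, Akap7 and Akap9 at 82.1 to 126, with Akap10 below them at 62.4 ± 1.21.

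As a share of the summed level per kb of the 10 genes, Akap2 made up 24.9% to 31.9% in knockout libraries and 12.5% to 16.3% in controls. For Akap6 the share was 10.2% to 13.0% in knockouts and 16.6% to 19.9% in controls, also without overlap. Shares of Akap13 were 11.7% to 13.9% in knockouts and 13.7% to 13.8% in controls, and overlapped. A gene with many short isoforms has its level understated by this scale.

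**Figure D2:**
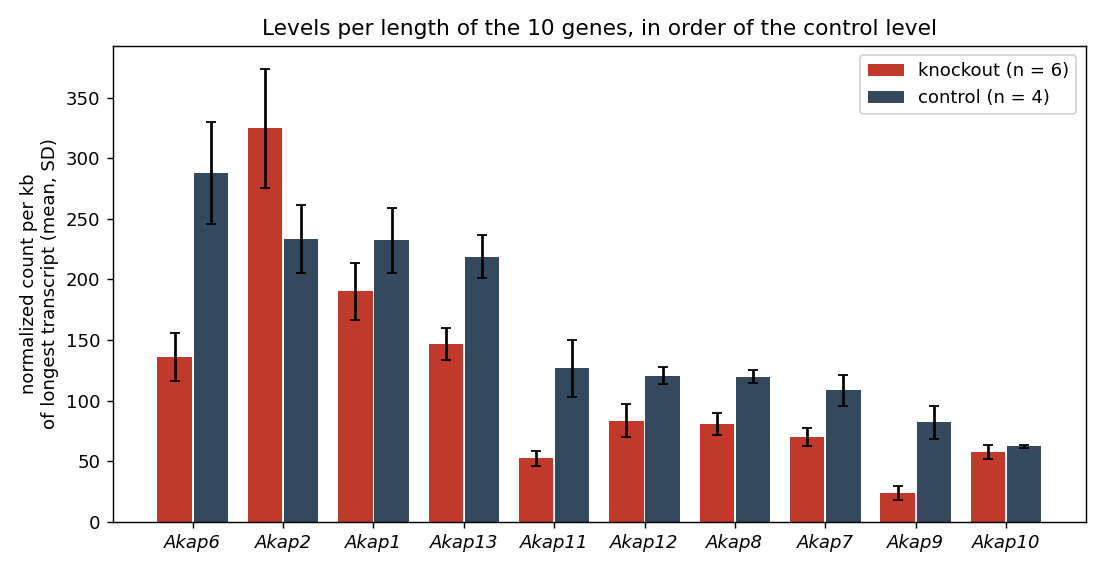
Mean normalized count per kilobase of the longest annotated transcript (vertical axis from 0) for the 10 anchoring genes, in order of the control level, with red bars for knockouts (n = 6) to the left of dark blue bars for controls (n = 4) and whiskers for the SD. Akap2 is the tallest knockout bar at 325 and Akap6 the tallest control bar at 288.

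Transcript length moved with the fold change in these libraries. Length and GC content were matched by symbol for 11973 of the 13191 tested genes, and the length classes and offsets cover only those. The 725 tested genes with a longest transcript of 8 kb and over had a median log2 fold change of -0.35, and 51.3% of them were called lower. In the 2308 genes under 2 kb the median was 0.14, and 11% were called lower. Akap6 (14847 bases), Akap9 (13123), Akap13 (12597) and Akap11 (9364) belong to the longest class, whose lower quartile was -0.71, so Akap6, Akap9 and Akap11 lay below that quartile and Akap13 within the middle range. Akap7 has a longest transcript of 2391 bases, and its log2 fold change of -0.66 lay below the lower quartile of genes of 2 to 4 kb, -0.26. Akap8 and Akap12 lay below the lower quartile of genes of 4 to 8 kb, -0.41, and Akap2 lay above their upper quartile, 0.20.

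With offsets for exon length and GC content, estimated per library and blind to genotype, all 9 calls among the 10 genes stood. Of all 11973 genes in that fit 5159 were called, 2677 lower and 2482 higher. The log2 fold change was then -1.31 ± 0.13 for Akap9, -0.97 ± 0.09 for Akap11 and -0.71 ± 0.10 for Akap6. That of Akap13 was -0.23 ± 0.09 and just passed (adjusted p = 0.0496). Akap1 had a larger value, -0.43 ± 0.10 (adjusted p = 0.00466). A length bias and a genotype change tied to length cannot be told apart by such offsets.

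**Figure D3:**
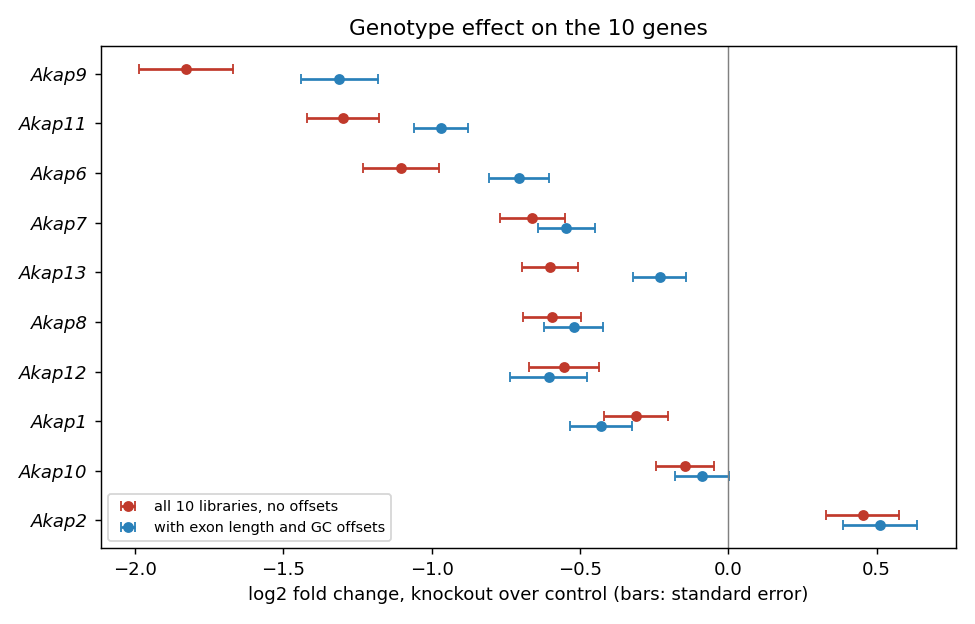
Log2 fold change of knockout over control for the 10 anchoring genes (horizontal axis, bars are the standard error), without offsets in red and with exon length and GC offsets in blue. Akap9 is -1.83 without and -1.31 with offsets, Akap13 -0.60 and -0.23, and Akap2 0.45 and 0.51.

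**Figure D4:**
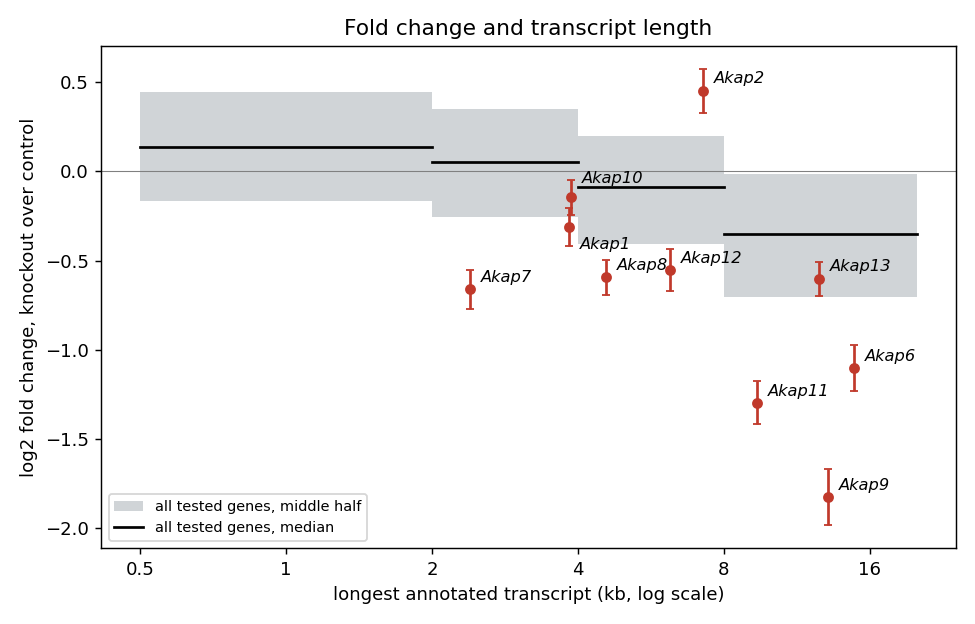
Log2 fold change of knockout over control (vertical axis) against the longest annotated transcript in kilobases (horizontal axis, log scale), with the 10 anchoring genes in red with standard errors. Black lines are the medians and grey bands the range between the quartiles in 4 length classes, over the 11973 tested genes with a length matched by symbol. Akap9, Akap11 and Akap6 lie below the grey band of the longest class, and Akap2 above the band of its class.

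Sex was labelled for every animal, so the genotype effect was also set out by sex. In females the log2 fold change was -2.06 ± 0.13 for Akap9, -1.47 ± 0.14 for Akap11 and -1.27 ± 0.14 for Akap6, from 3 knockouts and 2 controls. Fits of the male libraries alone gave -1.57 ± 0.25, -1.09 ± 0.17 and -0.91 ± 0.20 for the same genes, and Akap8 was the fourth to pass there (-0.64 ± 0.17, adjusted p = 0.039). Akap13, Akap7, Akap12, Akap1 and Akap2 had log2 fold changes of -0.48, -0.50, -0.48, -0.43 and 0.47 in males, and none of these 5 passed in the males alone. Calls were fewer in males over all genes too, with 2061 of 13196 tested genes, against 4957 of 13257 in females alone. Fits of the female libraries alone called 7 members lower and 1 higher. Akap1 did not pass there either (-0.18 ± 0.13, adjusted p = 0.301). The difference itself, tested as an interaction of genotype and sex in edgeR, passed for 0 of the 10 genes, by DESeq2 also for 0, and 0 had an unadjusted p under 0.05. Over all tested genes 0.205% passed, and 7.15% had an unadjusted p under 0.05. For Akap9 the male minus female difference in log2 fold change was 0.48 ± 0.31 (adjusted p = 0.828), so a difference of that size was not detectable with these numbers of animals.

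The other genes that carry the AKAP name were scarce, apart from Akap8l. Akap5 encodes AKAP150, which places PKA and calcineurin at beta-adrenergic receptors and calcium channels. It had 10.4 normalized counts at lowest, 15.6 at the median and 19.6 at highest in knockouts, against 34.3, 47.4, 32.4 and 24.1 in controls, and fell by 1.17 ± 0.23 on the log2 scale (adjusted p = 0.00116). Akap8l, a paralog of Akap8 that lies 185 bases from it on the same strand, had 281 ± 22.0 in knockouts and 331 ± 30.2 in controls (log2 fold change -0.26 ± 0.09, adjusted p = 0.0365). This call was lost without control M1, F1 or F2 or knockout F3, M1, M2 or M3 (adjusted p 0.0508 to 0.161). Akap17b had 46.1 ± 8.94 in knockouts and 64.9 ± 8.35 in controls (log2 fold change -0.52 ± 0.17, adjusted p = 0.0254). Its call was lost without control M1 or F2 or knockout F2 or F3 (adjusted p 0.0512 to 0.0929). Akap3, Akap4 and Akap14, known from sperm and cilia, were too low to test, with 0 to 3 reads in any library.

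Proteins that anchor PKA without the family name moved mostly downward. Of 13 tested genes 9 fell and 2 rose (median log2 fold change -0.62). Counts of this and the following lists stand beside 21.8% lower and 20.8% higher over all tested genes. Cmya5, which encodes myospryn at the Z-disc, had 847 ± 329 normalized counts in knockouts and 11787 ± 2947 in controls, with a log2 ratio of -3.82 ± 0.27 (adjusted p = 3.57e-07). Sphkap, an anchor of type I PKA, had 93.6 ± 26.4 in knockouts and 340 ± 98.1 in controls (log2 fold change -1.88 ± 0.21, adjusted p = 1.38e-05). Lrba, a BEACH-domain protein, had 326 ± 33.7 in knockouts and 736 ± 84.6 in controls, 2.30-fold lower (adjusted p = 1.94e-06). Nbea, its neuronal relative, changed by -0.52 ± 0.09 on the log2 scale (adjusted p = 0.000525), but by 0.10 with the length and GC offsets (adjusted p = 0.293).

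Genes of PKA subunits that passed the test rose, and the gene that fell encodes an inhibitor. Among 8 tested genes of PKA subunits and inhibitors 3 rose, 1 fell and 4 did not pass, with a median of 0.03. Prkaca, the main catalytic subunit of the heart, had 1360 ± 205 normalized counts in knockouts and 950 ± 42.2 in controls (log2 fold change 0.49 ± 0.11, adjusted p = 0.00234). Prkar1a, the type I regulatory subunit, had 5874 ± 729 in knockouts and 3947 ± 528 in controls (log2 fold change 0.55 ± 0.12, adjusted p = 0.00194). Prkar1b, a second type I subunit, was scarce at 29.6 ± 5.45 in knockouts and 10.2 ± 4.18 in controls and rose 2.80-fold (adjusted p = 0.000655). In these 3 genes every knockout lay above every control, as in 16.3% of all tested genes.

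Type II regulatory subunits, which most anchoring proteins prefer, are named here after their values were seen. For Prkar2a the log2 difference was -0.18 ± 0.11 (adjusted p = 0.203) and for Prkar2b -0.32 ± 0.24 (adjusted p = 0.312), and neither passed. Pkig, a PKA inhibitor, had 448 ± 160 in knockouts and 815 ± 302 in controls (log2 fold change -0.89 ± 0.28, adjusted p = 0.0195). It did not pass without control M2 (-0.81, adjusted p = 0.0542), F1 (-0.77, adjusted p = 0.0701) or F2 (-0.77, adjusted p = 0.0682). Control M1 was low, at 365.

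**Figure D5:**
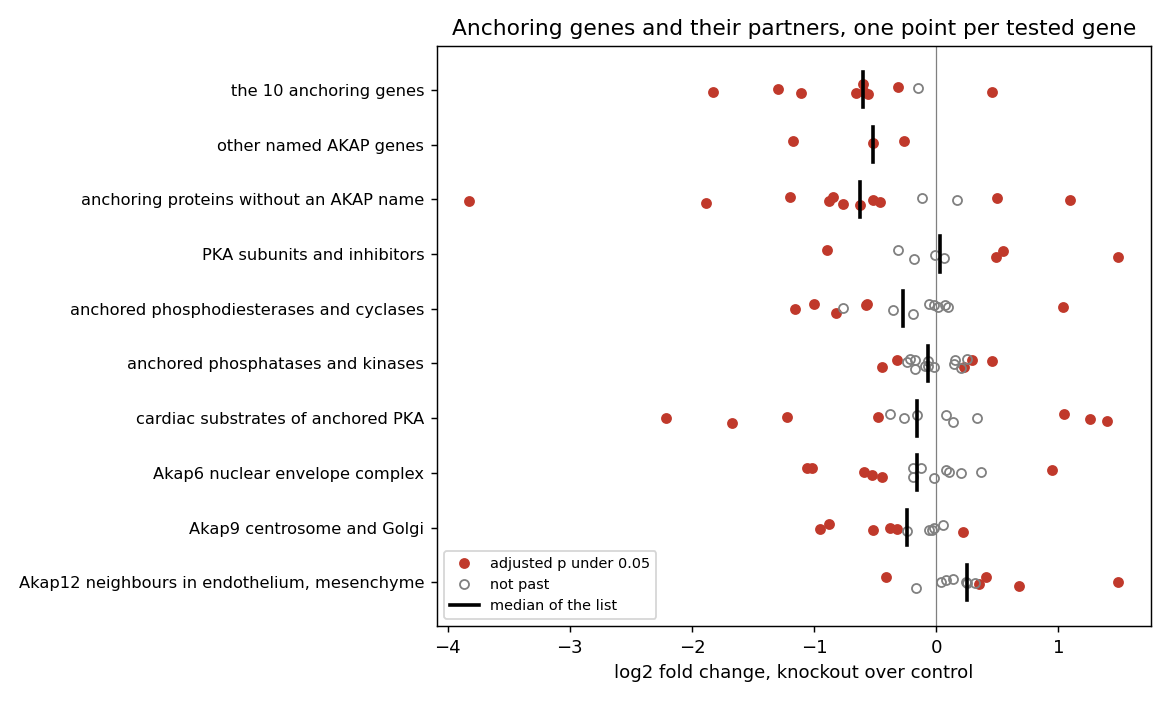
Log2 fold change of knockout over control (horizontal axis) for the 10 anchoring genes and for 9 lists of related genes, 1 point per tested gene, filled red where the adjusted p was under 0.05 and open grey otherwise, with a black bar at the median of each list. The median is -0.60 for the 10 anchoring genes, -0.62 for anchoring proteins without an AKAP name and 0.03 for PKA subunits and inhibitors.

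Among enzymes that make, break down or sense cyclic AMP, 5 of 14 tested genes fell and 1 rose (median -0.27). Adcy6, a main cyclase of cardiomyocytes, had 1645 ± 233 normalized counts in knockouts and 2396 ± 201 in controls (log2 fold change -0.57 ± 0.11, adjusted p = 0.000892). Adcy7 went the other way, with 1084 ± 206 in knockouts and 520 ± 37.7 in controls (1.04 ± 0.13, adjusted p = 3.86e-05). Rapgef4, which encodes the cyclic AMP sensor EPAC2, fell by 0.82 ± 0.17 on the log2 scale. Pde3a, a phosphodiesterase of the sarcoplasmic reticulum, changed by -0.57 ± 0.10 on the log2 scale (adjusted p = 0.00061), but by -0.22 with the length and GC offsets (adjusted p = 0.0697). Of 17 phosphatase and kinase genes of the anchored complexes 3 rose and 2 fell (median -0.07), beside 20.8% and 21.8% of all tested genes. Those that fell were Pdpk1 and Rps6ka3, which encode the kinases PDK1 and RSK2, and with the offsets neither passed (-0.10, adjusted p = 0.258, and -0.20, adjusted p = 0.162). Ppp2cb, a catalytic subunit of protein phosphatase 2A and among those that rose, did not pass with the offsets either (0.05, adjusted p = 0.669).

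PKA substrates and channels at the anchored complexes moved in both directions, with 4 of 13 tested genes lower and 3 higher (median -0.16). Over all tested genes these shares were 21.8% and 20.8%. Ryr2, the ryanodine receptor that mAKAP binds, had 7639 ± 1694 normalized counts in knockouts and 34855 ± 3468 in controls. Atp2a2, the calcium pump controlled by phospholamban, had 41045 ± 5918 in knockouts and 94223 ± 6524 in controls. Mybpc3, the cardiac myosin-binding protein C, rose by 1.26 ± 0.11 on the log2 scale (adjusted p = 1.59e-06).

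Genes of the complexes around particular members were also listed. Of 14 genes of the nuclear envelope complex of Akap6, 5 fell and 1 rose (median -0.16), beside 21.8% and 20.8% of all tested genes. Syne1, whose product nesprin-1 holds mAKAP at the nucleus, had 612 ± 65.1 normalized counts in knockouts and 1250 ± 75.9 in controls, with a log2 ratio of -1.05 ± 0.09 (adjusted p = 2.53e-06). Its relative Syne2 fell by 1.02 ± 0.11 on the log2 scale. With the length and GC offsets both still passed, at -0.40 for Syne1 and -0.53 for Syne2. Lmna, the gene of lamin A and C, rose by 0.95 ± 0.13 (adjusted p = 7.74e-05). Mef2a, a transcription factor of that complex, changed by -0.59 ± 0.10 on the log2 scale (adjusted p = 0.000435), but by -0.17 with the length and GC offsets (adjusted p = 0.162).

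Of 11 genes listed for the centrosome, microtubules and Golgi, where the Akap9 product sits, 5 fell and 1 rose (median -0.24). Over all tested genes these shares were 21.8% and 20.8%. Pcnt, which encodes pericentrin, another PKA-binding scaffold of the centrosome, had 530 ± 66.1 in knockouts and 1010 ± 82.9 in controls (-0.95 ± 0.10, adjusted p = 1.18e-05). Clip1 and Golga2 fell by 0.88 ± 0.14 and 0.52 ± 0.10 on the log2 scale. Among partners of Akap12 and genes of the endothelium and mesenchyme in which it is known, 4 of 12 rose and 1 fell (median 0.25), led by Actn1, an alpha-actinin of non-muscle cells, which rose by 1.49 ± 0.17 (adjusted p = 1.69e-05).

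Marker lists of the cells in the tissue moved between the groups as well, and their part in the changes of the anchoring genes was not tested. Over all tested genes 20.8% were called higher and 21.8% lower. Cardiomyocyte markers showed 4 rises and 3 falls among 10, with a summed level of 397338 to 548862 normalized counts in knockouts and 696684 to 887158 in controls. In a sum chosen after the data were seen, without Ttn, the long titin gene, the other 9 came to 274108 to 373544 in knockouts and 330417 to 376917 in controls, which overlap. The log2 fold change of Ttn was -1.74 ± 0.17, and -0.52 with the length and GC offsets. Ryr2 and Myh6 were the other cardiomyocyte markers that fell. Macrophage markers rose in 7 of 7 tested cases (6782 to 10373 in knockouts, 2882 to 4059 in controls), and fibroblast markers in 6 of 8 with 1 fall (33466 to 44753 in knockouts, 20268 to 22403 in controls). Among 8 endothelial markers 4 were higher and 2 lower (11197 to 13337 in knockouts, 9359 to 10381 in controls). For smooth muscle and pericytes 4 of 8 markers were higher (3142 to 3939 in knockouts, 2249 to 2770 in controls). Of 7 epicardial markers 1 rose (2779 to 4308 in knockouts, 2825 to 3599 in controls). Only 2 of 7 glial and nerve markers could be tested (1 higher and 1 lower), with sums of 45.1 to 64.2 in knockouts and 49.2 to 83.3 in controls. No marker of these lists that the table holds was at 0 in every library.

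The authors' deposited table gives the same signs for the 10 genes. Its log2 fold changes were -1.75 for Akap9, -1.25 for Akap11, -1.06 for Akap6 and 0.47 for Akap2. Its adjusted p in the authors' deposited table was 0.0383 for Akap1 and 0.409 for Akap10, and 36.6% of the 15796 genes with an adjusted p there were below 0.05.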

How the data were processed

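RNA from the left atrium of 6 knockout and 4 control mice was read single-end (51 bp). The labels' protocols name both an mRNA kit and ribosomal depletion. Per the submitters' processing notes, TopHat2 2.0.11, featureCounts and DESeq2 were used on mm10. Annotation, strand setting and treatment of shared reads: not given in the sources used here. The deposited table has raw counts for each symbol, used as they stand. Beside them stands the authors' normalized signal, each count over its library's size factor. The deposited log2 fold changes, p-values, linear fold and score (the Wald statistic) are the authors' own comparison, per the file headers.

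Counts were tested with edgeR 4.0.16 in R 4.3.3 (filterByExpr, TMM, quasi-likelihood F-test, Benjamini-Hochberg over 13191 genes, threshold 0.05), without covariates for genotype and with sex and its interaction for the sex difference. The standard error is the absolute log2 fold change divided by the square root of F. P-values measure the spread between animals as labelled. Levels are deposited normalized counts, mean ± SD. Positions, transcript lengths and GC content came from GENCODE M21 (GRCm38, also called mm10), matched by symbol, and promoters from RefSeq on GRCm38.p6.

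The members, gene lists and tests were chosen with earlier results of these data known. Named genes are Tbx5, the 10 members, the other AKAP genes, and within each list the 4 lowest adjusted p-values, some of which are not reported here. Gskip, Map2, Syne3, Mrtfa, Mrtfb and 1 macrophage marker had no row under the symbol used. The tests were checked on simulated data with 200 changed genes per comparison. Genotype changes of 1.5, 2 and 4-fold were recovered in 24.4%, 82.8% and 93.3% of cases, with 8 false among 132 calls. Interaction changes of those sizes were recovered in 0%, 17.5% and 84.6%, with 8 false among 74 calls. No libraries of a group agreed within sampling noise (lowest chi-square per degree of freedom 4.11). Alternatives were other scalings, DESeq2 1.42.0, limma-voom (limma 3.58.1), a robust fit, other filters and thresholds, sex or a replicate block, 1 sex alone, libraries left out and length and GC offsets.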

Additional observations from a re-analysis of the deposited data

Results flagged for a closer look

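Of 154 groups of libraries checked for the 77 named genes, 13 had a highest or lowest library far from the others of its group, where chance gives about 1 in 20. Among the 10 anchoring genes 2 of 20 groups did. Both were knockout M3, with Akap9 at 457 normalized counts against 304 for the next library, and Akap11 at 601 against 489. Rock1 was also high in knockout M3, at 685 against 490. Akap9 and Akap11 passed the test with all 10 libraries and with M3 left out.

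Among the other named genes, Pkig was low in control M1 (365 against 922) and Pde3a was high there (842 against 656). In knockouts Syne2 was low in F3 (1089 against 1357) and Mfap4, a fibroblast marker, high in F2 (2874 against 2077). C1qa, a macrophage marker, was high in M2 (1769 against 1210). In M1, Mef2a (633 against 491) and Tie1, an endothelial marker (1125 against 1011), were high. Akap14 was highest in knockout M1 at 3.11, and Akap4 in knockout M3 at 1.09 and control M2 at 0.85, values that stand for 1 to 3 reads.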

How the results depend on the processing

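Of 270 results for the 10 anchoring genes under 27 alternatives, 245 kept their direction and their side of the threshold, and the other 25 kept their direction but no longer passed. Akap6, Akap9, Akap11 and Akap10 kept both under all 27, whereas Akap1 no longer passed under 14 of the 27. The other thresholds, the test against a fold of 1.2 and the robust fit reuse the same fold changes, so direction could not change there. A looser threshold cannot lose a call, and a stricter one cannot add one for Akap10. With an absolute log2 fold change above 1 required, 3 members were lower and 0 higher, and 1533 genes in all (826 higher, 707 lower). A test against a fold of 1.2 left 0 members higher and 3592 genes (1717 higher, 1875 lower). Male libraries alone gave 4 members lower and 0 higher, and 2061 genes (1074 higher, 987 lower). Without control F1 and knockout M3 together Akap2 no longer passed (adjusted p = 0.0558), which left 0 members higher. Leaving out 1 library gave 7 to 8 members lower and 1 higher, with 4709 to 6085 genes called in all. With the length and GC offsets the fold changes of Nbea and Cep170 reversed to 0.10 and 0.12.

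The genotype by sex interaction called 27 genes, 80 with DESeq2, 114 without the filter, and 7 to 77 with 1 library left out, lowest without control F2 and highest without knockout M3. No member was called in any of these. Correlations of deviations between libraries of the same replicate name ran from -0.126 to 0.172, and 1 of 4 controls, M2, matched its own name best. The best match of any control reached only 0.187, so so weak a measure cannot settle whether shared names mark pairs. With a replicate block 5411 genes were called and the same 9 of 10 members passed, while among the other AKAP genes Akap17b (adjusted p = 0.079) and Akap8l (adjusted p = 0.12) did not. Lengths from the union of all exons, chosen after the data were seen, put Akap6 above Akap13, and Akap11 above Akap8, Akap7 and Akap10, in knockouts, and Akap12 above Akap11 in controls. Depth limits the scarce genes most, such as Akap5 and Prkar1b.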
